A study of Mus musculus with 22 samples.

Results

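Neurons (N) of the developing mouse neocortex were set against neuroepithelial cells (NEC), the founder progenitors of that tissue, for 2 histone marks. The comparison covers the autosomal peaks of 4 peak lists, which are H3K4me3 in N, H3K4me3 in NEC, H3K27me3 in N and H3K27me3 in NEC. Together these lists held 43689 autosomal peaks, of 110069 peaks in the 10 lists of the series. The N samples came from E14.5 embryos and the NEC samples from E9.5 embryos (E, embryonic day), both of the mouse strain C57BL/6JOlaHsd. Each cell type and mark had 2 samples, each list was called on combined samples, and so each list is a single value with no spread between replicates and no test. Cell type and embryonic age changed together between N and NEC and cannot be told apart. Peak calls on combined cells also cannot tell a mark in fewer cells from a weaker mark in every cell. The other cell types of the series, apical radial glia in a proliferative (aRG-P) and a neurogenic (aRG-N) state and basal radial glia (bRG), all of E14.5, served only to place the sites between both ends. Per the labels, the aRG-N H3K27me3 list rests on technical replicates.

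H3K4me3 is deposited at promoters by the MLL/SET1 (COMPASS) methyltransferases and marks genes that are active or ready for activation. H3K27me3 is deposited by EZH1 or EZH2 within Polycomb repressive complex 2 and accompanies stable silencing of developmental genes, often over long domains. Promoters that carry both marks are called bivalent, a state well known from stem cells, and on differentiation such promoters can keep either mark alone. A site that has H3K4me3 alone in one cell type and H3K27me3 alone in the other has exchanged one mark for the other, and such sites are described here in both directions.

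The N list held 15247 autosomal H3K4me3 peaks and the NEC list 17196. For H3K27me3 the numbers were 5448 in N and 5798 in NEC. The H3K27me3 peaks covered 21.8 Mb in N and 20.7 Mb in NEC, and the H3K4me3 peaks 13.1 Mb in N and 19.7 Mb in NEC. Each H3K4me3 peak has a fold enrichment, the ratio to background assigned by the caller the authors used, with a median of 8.31 in N and 19.2 in NEC. Peaks of a weakly enriched list are harder to call, and the part of this difference in the results was not tested. The read depth of the lists is unknown. All positions are 1-based in mouse build mm9. The gene table used here is of another build, so sites are given by position without gene names, and the labelled cell types were not checked against marker genes.

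Few N H3K4me3 peaks were without a counterpart in NEC, while a larger share of NEC peaks had none in N, and H3K27me3 differed far more than H3K4me3 in both directions. Of the N H3K4me3 peaks, 540 (3.54%, exact Clopper-Pearson 95% interval 3.25 to 3.85%) shared no base with a NEC H3K4me3 peak. Of the NEC H3K4me3 peaks, 3923 (22.8%, interval 22.2 to 23.4%) shared none with an N peak. For H3K27me3 the unshared peaks numbered 2055 in N (37.7%, interval 36.4 to 39.0%) and 2379 in NEC (41.0%, interval 39.8 to 42.3%). These intervals cover counting error only. Unshared peaks of both H3K4me3 lists had low enrichments, with medians of 4.97 in N and 6.90 in NEC, against 8.53 and 23.6 for the shared peaks of the N list and of the NEC list. Unshared N H3K4me3 peaks mostly stood beside NEC peaks. Their median distance to the nearest NEC peak was 659 bp, and 132 of them had no NEC peak within 5000 bp. For unshared NEC H3K4me3 peaks the median distance to an N peak was 9297 bp, and 2186 had none within 5000 bp. The smallest overlap that made a peak shared was 1 bp, and 279 shared N peaks and 2259 shared NEC peaks had under 50% of their length covered.

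When H3K4me3 peaks of N and NEC that touched were joined, 17134 sites resulted, and each had 1 state of the marks in N and 1 in NEC. In N, 11279 sites had H3K4me3 only, 1932 had both marks, 1616 had H3K27me3 only and 2307 had neither. In NEC, 12307 had H3K4me3 only, 4287 had both marks, 148 had H3K27me3 only and 392 had neither. Sites with both marks in NEC were found in every state in N. H3K4me3 alone was present in N at 1209 of them, both marks at 1538, H3K27me3 alone at 1351 and neither at 189. Of the 4287 sites with both marks in NEC, 35.9% thus had both in N, and of the 1932 with both in N, 79.6% had both in NEC. Overlap of peaks from separate lists does not show both marks on the same chromosome copy or in the same cell. Of the sites with H3K4me3 alone in NEC, 9580 had it alone in N too and 2118 had neither mark in N, the most frequent single change. Complete exchange was much rarer. H3K27me3 alone in N with H3K4me3 alone in NEC was found at 265 sites (1.55% of all sites), and H3K4me3 alone in N with H3K27me3 alone in NEC at 102 sites (0.595%).

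**Figure D1:**
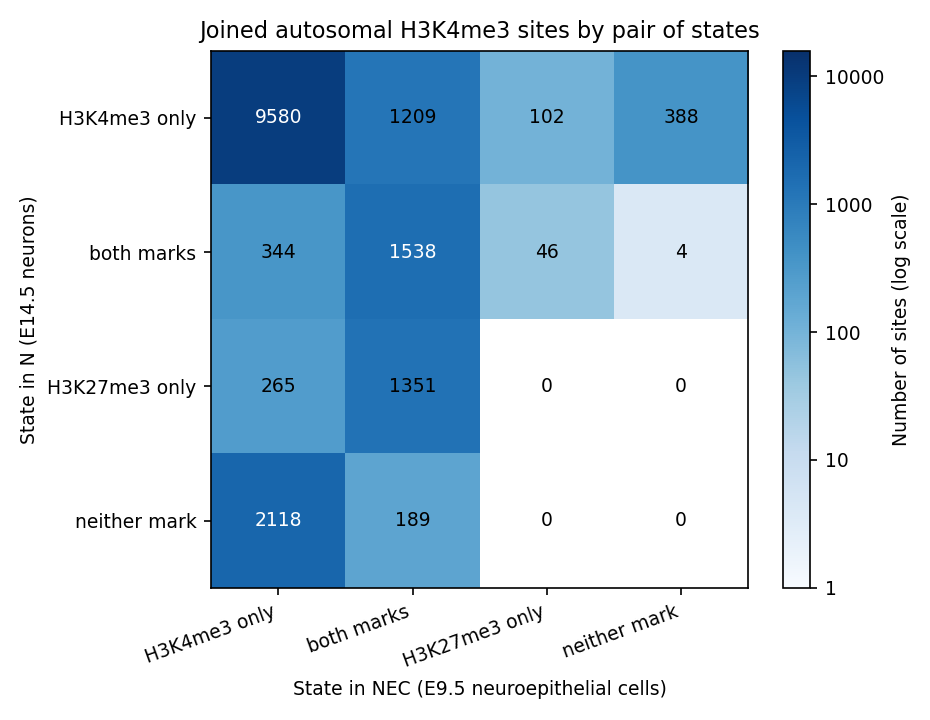
Number of joined autosomal H3K4me3 sites in each pair of states, with the state in N down the side and the state in NEC along the bottom (colour on a log scale, 0 in white). A site needed H3K4me3 in N or NEC, so the 4 cells without it are 0 by construction. The 265 sites in the third row and the 102 sites in the third column of the first row are the complete exchanges.

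At sites with H3K27me3 in N and H3K4me3 in NEC, the H3K4me3 was generally weak in the NEC list, with a few of the strongest peaks of that list among them. The 265 NEC H3K4me3 peaks were 1.54% of the NEC list (interval 1.36 to 1.74%) and lay on all 19 autosomes. Their fold enrichment in NEC had a median of 7.88 and ranged from 3.77 to 51.7, and 28 of them were above the median of the whole list. They were 183 to 6122 bp wide, with a median of 515 bp. No N H3K4me3 peak lay within 5000 bp of 200 of them. The N H3K27me3 peaks at these sites numbered 230, and 201 of these touched 1 exchanged site each. Of the 265 sites, 169 lay wholly inside N H3K27me3 peaks and 31 had under 50% of their length covered.

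Most of these N H3K27me3 peaks had no counterpart in NEC. The definition of the sites favours this, since it excludes NEC H3K27me3 over the NEC H3K4me3 peak. In the whole N H3K27me3 list, 2055 of 5448 peaks (37.7%) had no counterpart. At 198 of the 265 sites the N H3K27me3 peak shared no base with any NEC H3K27me3 peak, and the median width of the peak was there 1.58 kb. At the other 67 the N peak, with a median width of 3.95 kb, also overlapped NEC H3K27me3 outside the NEC H3K4me3 peak. In the ranking of the N H3K27me3 list by its first score, the exchanged sites had a median at percentile 55.7.

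The share of NEC H3K4me3 peaks with H3K27me3 in N was higher among those missing from the N H3K4me3 list, in every quartile of fold enrichment. Among NEC peaks without NEC H3K27me3, 265 of the 2383 missing from the N H3K4me3 list had N H3K27me3 (11.1%, interval 9.89 to 12.5%), against 361 of the 10455 found in that list (3.45%, interval 3.11 to 3.82%). In the lowest quartile of fold enrichment the shares were 8.77% of 1825 missing peaks and 3.07% of 911 found ones. In the highest quartile they were 66.7% of 18 missing peaks (interval 41.0 to 86.7%) and 2.20% of 4184 found ones (interval 1.78 to 2.69%). Strong NEC H3K4me3 peaks without NEC H3K27me3 that were missing in N were thus few, and 12 of those 18 had H3K27me3 in N.

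**Figure D2:**
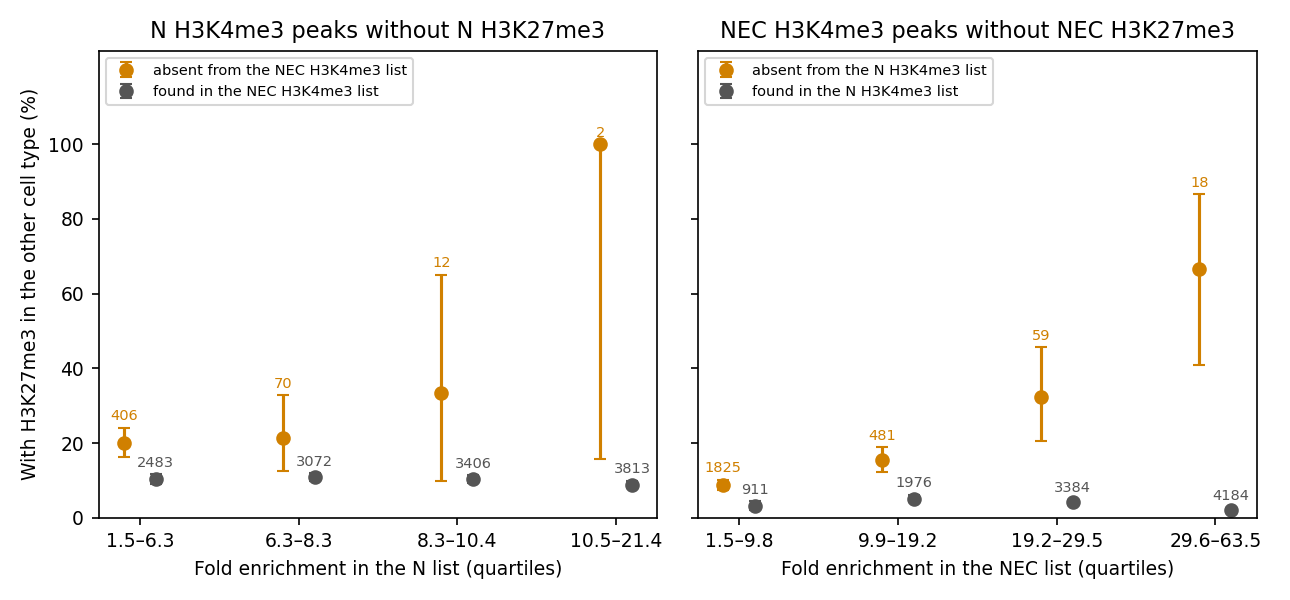
Share of H3K4me3 peaks (without H3K27me3 in their own cell type) that overlapped an H3K27me3 peak of the other cell type, by quartile of fold enrichment in their list, for N peaks on the left and NEC peaks on the right. Points are shares with exact 95% intervals and the number above each is the number of peaks. Among NEC peaks absent from the N list the share was 8.77% in the lowest quartile and 66.7% in the highest.

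Among the 10 strongest of these sites with no N H3K4me3 peak within 5000 bp, 2 patterns over the E14.5 lists were seen, with 2 sites between them. The first pattern had H3K27me3 in all 4 E14.5 lists and little or no H3K4me3 in any. On chromosome 4 from 133571168 to 133575153, N had no H3K4me3 peak and NEC had one with a fold enrichment of 51.7, the highest of all exchanged sites. This region carried an H3K27me3 peak of 5.93 kb in N, against none in NEC, and peaks of 4.64 kb in aRG-P, 4.85 kb in aRG-N and 4.75 kb in bRG. No E14.5 list had H3K4me3 there. On chromosome 14 from 49281168 to 49287289, an N H3K27me3 domain of 29.3 kb covered a NEC H3K4me3 peak with a fold enrichment of 43.8, and domains of 28.3 to 29.8 kb were present in the other E14.5 lists. Here NEC had H3K27me3 next to the H3K4me3 peak, within 5000 bp. On chromosome 9 from 106050433 to 106052396 (fold enrichment 38.4 in NEC) an N H3K27me3 peak of 6.37 kb was likewise found in all E14.5 lists, and a weak H3K4me3 peak (fold enrichment 7.29) remained in aRG-N alone.

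The chromosome 1 site at 191551311 to 191553864, with an enrichment of 36.9 in NEC, had both marks in aRG-P, aRG-N and bRG. There the N H3K27me3 peak measured 6.47 kb and H3K4me3 was absent in N. Its H3K4me3 peaks in aRG-P, aRG-N and bRG were 626, 1002 and 567 bp wide, against 2554 bp in NEC. The chromosome 19 site at 55816348 to 55820470 (37.4 in NEC) had H3K4me3 in aRG-P, aRG-N and bRG too, with H3K27me3 in aRG-P and bRG and not in aRG-N. The N H3K27me3 peak there, 6.54 kb long, was longer than those in aRG-P (2.78 kb) and bRG (2.37 kb).

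The second pattern had H3K27me3 in N alone. On chromosome 15 from 103195557 to 103197663 (fold enrichment 36.0 in NEC), H3K4me3 was present in NEC, aRG-P, aRG-N and bRG, and N had an H3K27me3 peak of 1.88 kb. The same was seen on chromosome 7 from 31757314 to 31759223 (36.0 in NEC, N H3K27me3 peak of 0.947 kb), on chromosome 14 from 52945209 to 52948414 (35.0, 1.69 kb) and on chromosome 13 from 23390729 to 23392008 (30.0, 3.41 kb). On chromosomes 15, 7, 14 and 13, bRG H3K4me3 peaks stood at percentiles 36.7, 6.38, 6.57 and 1.25 of their list's fold enrichment. Those of aRG-P stood at 42.3, 26.9, 46.1 and 5.46, and those of aRG-N between 16.1 and 45.0. On chromosome 13 the peaks of aRG-P and bRG measured only 211 and 308 bp, against 1280 bp in NEC. The N H3K27me3 peak covered 85.8% of the NEC H3K4me3 peak on chromosome 15, 49.6% on chromosome 7, 28.5% on chromosome 14 and 100% on chromosome 13. In the same order, these N peaks were at percentiles 70.6, 41.6, 46.5 and 35.4 of the first score. On chromosome 3 from 87751239 to 87756494 (37.4 in NEC) H3K4me3 was missing in bRG and N and found in the remaining lists. Its peaks in aRG-P and aRG-N measured 182 and 627 bp, at percentiles 2.50 and 4.16 of fold enrichment, against 5256 bp in NEC. The N H3K27me3 peak of 1.28 kb on this region was among the weakest of its list, at percentile 3.95 of the first score. It covered 24.4% of the NEC H3K4me3 peak. In all, 12 of the 265 sites had H3K4me3 in each of aRG-P, aRG-N and bRG and H3K27me3 in N only. Their N H3K27me3 peaks had a median width of 1.32 kb.

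**Figure D3:**
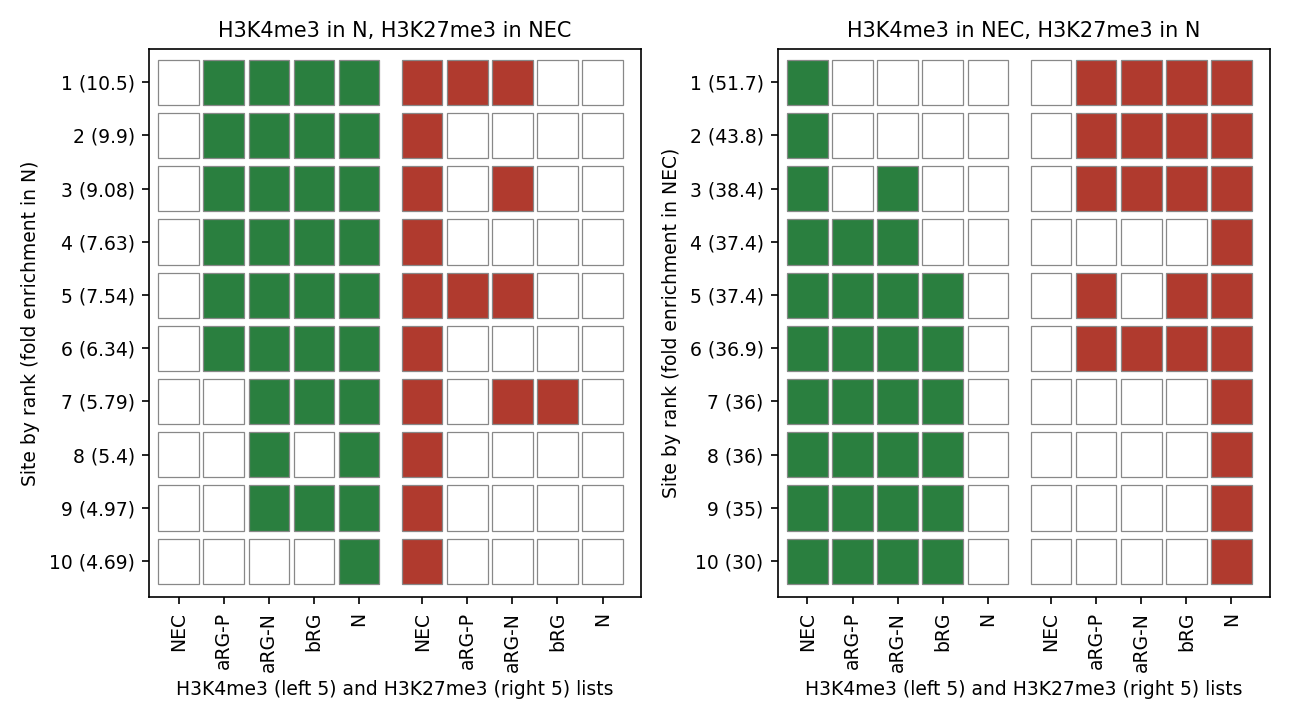
Presence (filled) or absence (white) of a peak at the 10 strongest exchanged sites of each direction with no H3K4me3 peak of the other cell type within 5000 bp, H3K4me3 in green and H3K27me3 in red, 5 cell types each. Rows are ranked by the fold enrichment given in brackets, with H3K4me3 in N on the left and H3K4me3 in NEC on the right. In the right panel 5 of the 10 sites have H3K27me3 in N alone.

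Sites of the opposite direction, with H3K4me3 in N and H3K27me3 in NEC, were fewer and mostly lay within 5000 bp of a NEC H3K4me3 peak. The 102 N H3K4me3 peaks were 0.669% of the N list (interval 0.546 to 0.812%). Their fold enrichment in N had a median of 4.97 and a highest value of 11.8, and 6 of them were above the median of the N list. They were 206 to 5857 bp wide, with a median of 340 bp. Only 13 had no NEC H3K4me3 peak within 5000 bp, so the other 89 stood near H3K4me3 that NEC also had. Of the 102, 78 lay wholly inside NEC H3K27me3 peaks. At 88 of the 102 the NEC H3K27me3 peak shared no base with N H3K27me3, and at 14 it overlapped N H3K27me3 elsewhere along its length. The definition of the sites favours the first case here too. In the whole NEC H3K27me3 list, 2379 of 5798 peaks (41.0%) shared no base with N H3K27me3. Among N H3K4me3 peaks without N H3K27me3, 102 of the 490 missing from the NEC H3K4me3 list had NEC H3K27me3 (20.8%, interval 17.3 to 24.7%), against 1281 of the 12774 found in that list (10.03%, interval 9.51 to 10.56%). In the lowest quartile of fold enrichment, which held 406 of the 490 missing peaks, these shares were 19.95% and 10.4%. Though the sites were fewer, the share of 20.8% among missing peaks was above the 11.1% (265 of 2383) of the NEC list. Among found peaks the share was also higher in the N list, with 10.03% against 3.45% (361 of 10455) in the NEC list. The shares among missing peaks alone therefore do not rank the 2 directions. Fewer H3K4me3 peaks of N were unshared (540) than of NEC (3923), and the part of this in the 2 counts was not tested.

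The clearest examples of this direction lay in long NEC domains. On chromosome 8, N had no H3K27me3 over a stretch, from 87257975 to 87338904, that NEC covered with a domain of 80.9 kb. N had 4 exchanged H3K4me3 peaks inside the domain, of which 3 had no NEC H3K4me3 peak within 5000 bp. The domain itself also overlapped NEC H3K4me3, so it did not carry H3K27me3 alone in NEC along its whole length. The longest ran from 87293084 to 87296351 with a fold enrichment of 7.63 in N, and H3K4me3 peaks of aRG-P, aRG-N and bRG overlapped it as well. On chromosome 2 from 61642638 to 61648494, an N H3K4me3 peak of 5.86 kb, the widest of its direction, had a fold enrichment of 7.54. It lay within a NEC H3K27me3 domain of 14.3 kb (61640686 to 61655024), which was at percentile 98.1 of the first score in the NEC list. H3K4me3 was present over that peak in all E14.5 lists, with widths of 3.31 kb in aRG-P, 3.51 kb in aRG-N and 3.19 kb for the longest bRG peak. H3K27me3 remained in aRG-P (6.62 kb) and aRG-N (11.7 kb) and was absent in bRG and N. This region therefore had H3K27me3 alone in NEC, both marks in the 2 apical lists and H3K4me3 alone in bRG and N.

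A like order of states over the H3K4me3 peak itself was found on chromosome 11, although N H3K27me3 overlapped the NEC domain elsewhere along its length. There an N H3K4me3 peak from 98187134 to 98190783, with the highest fold enrichment among sites far from NEC H3K4me3 (10.5), lay in a NEC H3K27me3 domain of 40.8 kb. H3K27me3 over the peak was 15.5 kb long in aRG-P and 20.9 kb in aRG-N and was absent in bRG and N, and H3K4me3 was present in all E14.5 lists. On chromosome 14 from 66963158 to 66964770 (fold enrichment 9.90 in N), H3K27me3 was found in NEC alone, with 1.26 kb, and H3K4me3 in all E14.5 lists. A site on chromosome 5 from 137994315 to 137995386 (9.08 in N) met its NEC H3K27me3 peak over 4.76% of its length. On chromosome 15 from 82791642 to 82791910 (4.69 in N), H3K4me3 was found in N alone and H3K27me3 in NEC alone. The other named sites of this direction, on chromosomes 8, 9 and 18, were peaks of at most 639 bp with fold enrichments from 4.97 to 6.34.

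**Figure D4:**
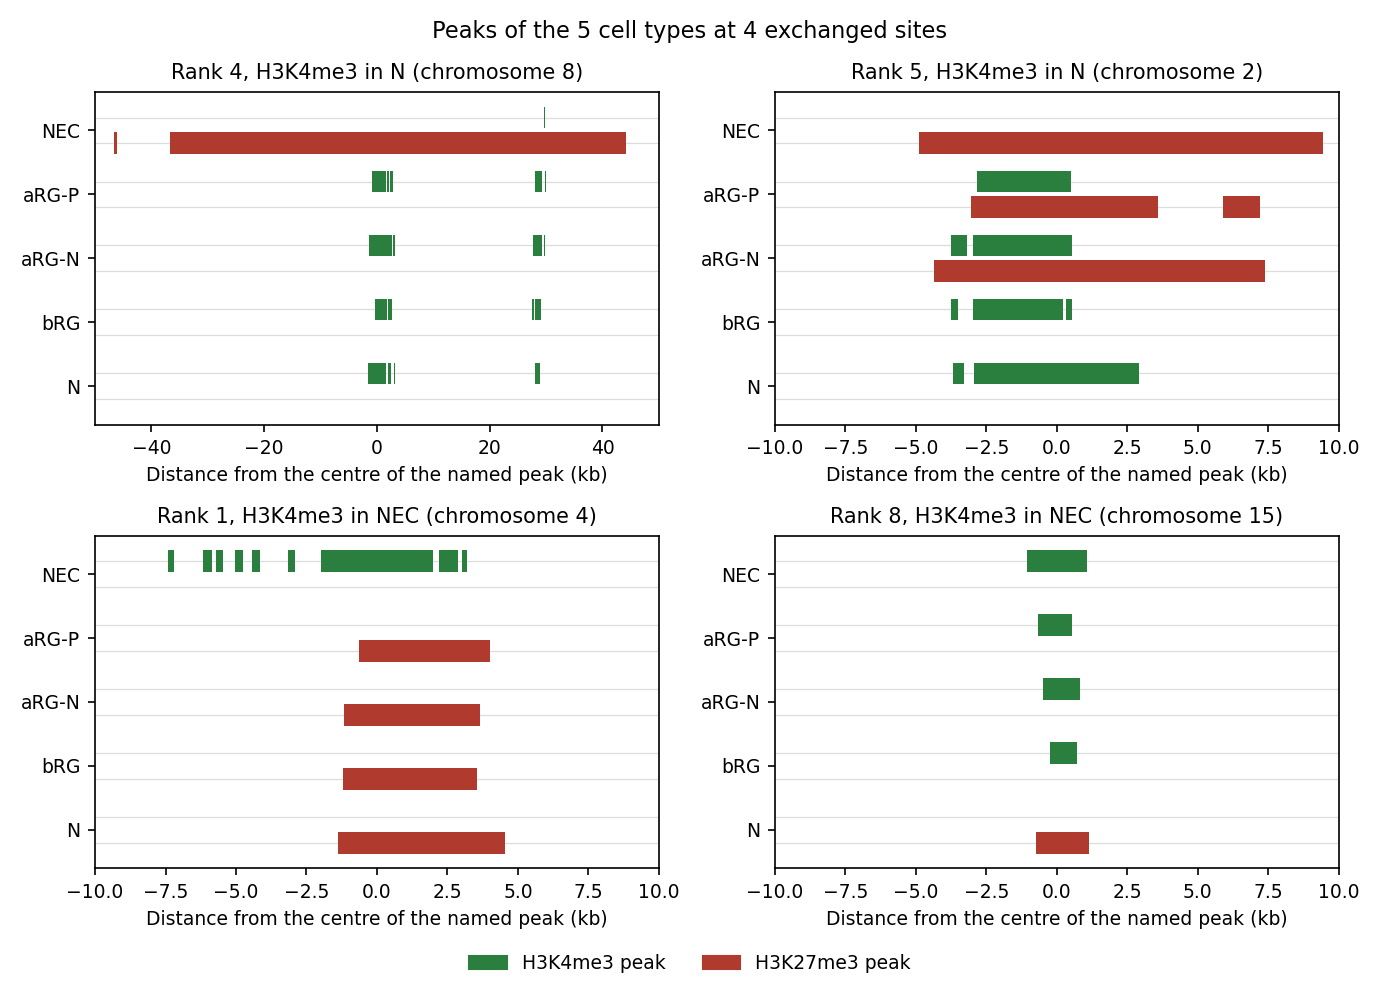
Peaks of both marks in the 5 cell types around 4 exchanged sites, as distance in kb from the centre of the named H3K4me3 peak (50 kb to each side on chromosome 8, 10 kb at the other 3). On chromosome 8 and chromosome 2 N has H3K4me3 at the centre and NEC has H3K27me3. On chromosome 4 and chromosome 15 N has H3K27me3 and NEC has H3K4me3. The N peak is shared with the other E14.5 lists on chromosome 4 and found in N alone on chromosome 15.

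Between both ends, the E14.5 progenitor lists had the marks of N at many of the exchanged sites and those of NEC at others. Of the 265 sites with H3K27me3 in N, H3K27me3 was present at 127 in aRG-P (47.9%), 148 in aRG-N (55.8%) and 102 in bRG (38.5%). H3K4me3 was still present at 41 in aRG-P (15.5%), 76 in aRG-N (28.7%) and 32 in bRG (12.1%). None of the 3 progenitor lists had H3K4me3 at 180 of these sites, and 61 of them had H3K27me3 in all 3. Neither mark was found in any of the 3 lists at 51 sites. Of the 102 sites with H3K4me3 in N, H3K4me3 was present at 31 in aRG-P (30.4%), 43 in aRG-N (42.2%) and 42 in bRG (41.2%). H3K27me3 was present there at 21 in aRG-P (20.6%), 44 in aRG-N (43.1%) and 7 in bRG (6.86%). The bRG H3K27me3 list is the shortest of the series, with 3387 autosomal peaks against 6165 in aRG-N. Whether list length had a part in the shares of H3K27me3 was not tested.

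**Figure D5:**
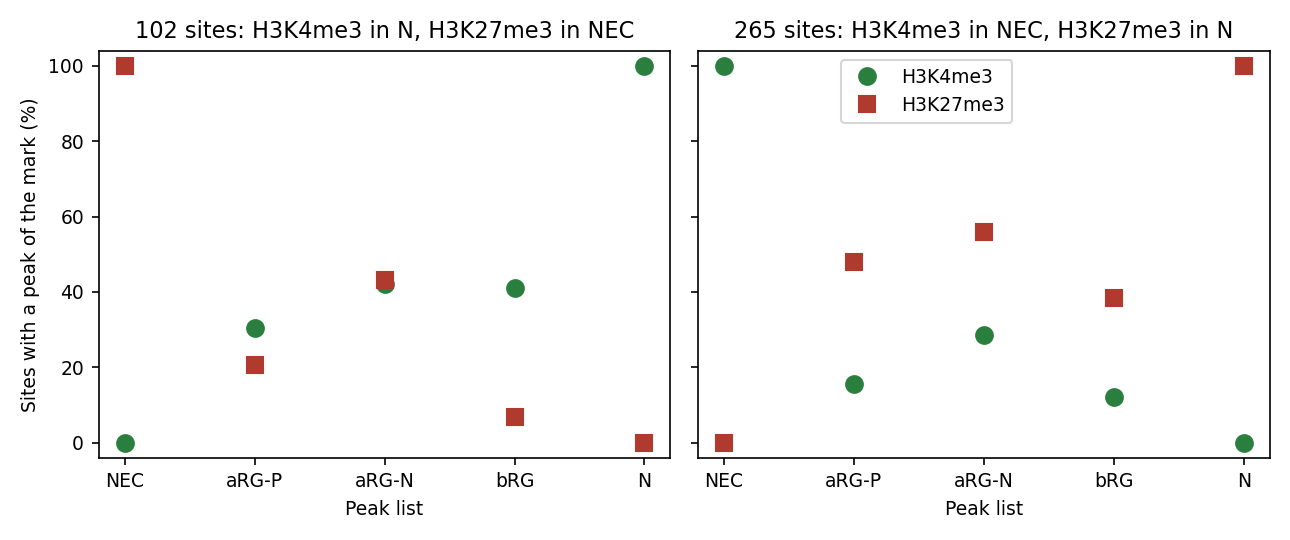
Share of exchanged sites with a peak of H3K4me3 (green) or H3K27me3 (red) in each of the 5 lists, for the 102 sites with H3K4me3 in N on the left and the 265 sites with H3K4me3 in NEC on the right. The values of N and NEC are 0 or 100% by the definition of the sites. H3K27me3 reaches 55.8% in aRG-N among the 265 sites and 6.86% in bRG among the 102 sites.

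The same definition applied to the other E14.5 lists, which share the NEC lists with this comparison, gave 134 sites with H3K27me3 in aRG-P, 166 in aRG-N and 107 in bRG in place of NEC H3K4me3, beside the 265 in N. In the opposite direction the numbers were 83 in aRG-P, 57 in aRG-N and 91 in bRG, beside the 102 in N. Sites with NEC H3K4me3 made up 1.54% (N), 0.965% (aRG-N), 0.779% (aRG-P) and 0.622% (bRG) of the NEC H3K4me3 peaks. Those of the opposite direction made up 0.669% (N), 0.623% (bRG), 0.536% (aRG-P) and 0.399% (aRG-N) of each cell type's own H3K4me3 peaks. The H3K27me3 lists ranged from 3387 (bRG) to 6165 (aRG-N) autosomal peaks, and the part of list length in these counts was not tested.

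Counted over H3K27me3 peaks, exchange was also more frequent towards H3K27me3 in N. Of the N H3K27me3 peaks, 190 (3.49%, interval 3.02 to 4.01%) had no NEC H3K27me3, no N H3K4me3 and a NEC H3K4me3 peak. At 46 of these 190 the NEC H3K4me3 peak reached beyond the H3K27me3 peak and overlapped N H3K4me3 there. The median width of the 190 was 1167 bp, and NEC H3K4me3 covered a median of 48.3% of their length. The longest, on chromosome 3 from 96124954 to 96149228 (24.3 kb) and on chromosome 19 from 55958356 to 55979009 (20.7 kb), had H3K27me3 in all 4 E14.5 lists. NEC H3K4me3 in them was short, with 399 bp and 1923 bp. On chromosome 10 from 45188473 to 45195288 an N peak of 6.82 kb, also present in all E14.5 lists, was covered by NEC H3K4me3 over 39.6% of its length. A further N peak, on chromosome 15 from 102192541 to 102201296 (8.76 kb), showed H3K27me3 in all E14.5 lists too. Of the NEC H3K27me3 peaks, 37 (0.638%, interval 0.4497 to 0.879%) had no N H3K27me3, no NEC H3K4me3 and an N H3K4me3 peak. At 29 of these 37 the N H3K4me3 peak reached beyond the H3K27me3 peak and overlapped NEC H3K4me3 there. The longest of the 37 was the chromosome 2 domain of 14.3 kb described above, and the next measured 4.53 kb (chromosome 9 from 34294273 to 34298799), where N H3K4me3 covered 20 bp.

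Most H3K27me3 that differed between N and NEC did so without an exchange. Of the 2055 unshared N H3K27me3 peaks, 1609 overlapped H3K4me3 in neither cell type and 253 overlapped it in both. Of the 2379 unshared NEC H3K27me3 peaks, 1210 overlapped H3K4me3 in neither and 923 in both. The longest N domains with no NEC H3K27me3 peak within 5000 bp lay on chromosome 9 from 63327270 to 63381865 (54.6 kb), on chromosome 11 from 35341745 to 35390253 (48.5 kb) and on chromosome 9 from 69660970 to 69691929 (31.0 kb). All 3 were found in every E14.5 list and carried no H3K4me3 in any list. After the chromosome 8 domain, the longest NEC domains with no N H3K27me3 peak within 5000 bp lay on chromosome 13 from 83852072 to 83883355 (31.3 kb) and on chromosome 12 from 50473557 to 50503223 (29.7 kb). Both were found in NEC alone, and each overlapped H3K4me3 peaks of all 5 lists. The chromosome 13 domain also held 1 of the 102 exchanged N H3K4me3 peaks, from 83859304 to 83859533.

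At H3K4me3 peaks that N and NEC shared, H3K27me3 in N alone was less frequent than in NEC alone. Among the 14707 shared N H3K4me3 peaks, 452 overlapped H3K27me3 in N only, 1281 in NEC only, 1481 in both and 11493 in neither. The median fold enrichment in N was 6.47 for those with H3K27me3 in N only, 8.75 for those with it in NEC only and 6.34 for those with it in both, against 8.81 for those with it in neither. Shared H3K4me3 peaks with H3K27me3 in N therefore had lower median enrichments than the other shared peaks of the N list.

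Among N H3K4me3 peaks without exchange and with no NEC H3K4me3 peak within 5000 bp, the strongest lay on chromosome 5 from 136282700 to 136283101 (fold enrichment 10.4 in N). It had H3K4me3 in all E14.5 lists and no H3K27me3 in any list. The third strongest NEC site with no N H3K4me3 peak within 5000 bp, on chromosome 17 from 86020069 to 86026069 (43.3 in NEC), had H3K27me3 in all 5 lists, NEC included. It thus had H3K27me3 alone in N and both marks in NEC, as 1351 of the joined sites did.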

How the data were processed

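Chromatin of purified neural cells was immunoprecipitated for H3K4me3 or H3K27me3 with a kit for low cell numbers, per the labels' protocols. Per the submitters' processing notes, Bowtie 1.0.0, MACS2 and bedtools were used with build mm9. Per the file headers and peak names, each deposited list holds peaks near transcripts called on combined samples, and the reads of the N H3K27me3 list were extended by 200. Of the peak numbers, 9.30% (N) and 17.8% (NEC) for H3K4me3 and 33.2% (N) and 30.9% (NEC) for H3K27me3 are not in the lists used here. Each deposited H3K4me3 peak has a fold enrichment (a ratio) with −log10 p and −log10 q values. The deposited H3K27me3 columns are called a score, since their meaning could not be settled, and only rank peaks within a list. Fold enrichment describes peaks within a list.

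Autosomal peaks were compared by an overlap of at least 1 bp. The tools were pandas 2.3.3, numpy 2.4.6 and scipy 1.17.1 under Python 3.11.15, with matplotlib 3.10.9 for the plots. An exchanged site is an H3K4me3 peak with no H3K4me3 in the other cell type, no H3K27me3 in its own and H3K27me3 in the other. Named were, per direction, the 10 exchanged H3K4me3 peaks of highest fold enrichment with no H3K4me3 peak of the other cell type within 5000 bp and the 5 widest exchanged H3K27me3 peaks, and per list and mark the 3 strongest or longest unshared peaks with none within 5000 bp. The mapped sites were picked with their values known. The members and the definitions were chosen with earlier results of these data known. Overlap calling was run on copies of the N lists in which H3K4me3 peaks were replaced by H3K27me3 at the same positions. All these planted exchanges were recovered. This checks the code only, since partial overlaps and unequal enrichment were not planted. No sequence is given, since no genome of the build of the files was used. The alternatives tried are an overlap of at least 50% of a peak, no peak within 5000 bp, stricter peaks, lists of equal length, joined peaks, all chromosomes, other anchors of the exchange and shortened N H3K27me3 peaks.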

Additional observations from a re-analysis of the deposited data

How the results depend on the processing

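Of 48 values under the alternatives, 29 stayed within 1.5 times the reported count, and in each alternative that was run more sites had H3K27me3 in N and H3K4me3 in NEC than the reverse. No replicate could be left out, and no paired analysis was possible because each list was called on combined samples. The number of sites with H3K27me3 in N and H3K4me3 in NEC (265) was 524 when at least 50% of a peak had to be covered, 159 with peaks joined across 3000 bp, 1616 when NEC H3K27me3 was allowed and 140 with neither absent mark within 5000 bp, an alternative chosen after seeing the data. The number of sites with H3K4me3 in N and H3K27me3 in NEC (102) was 181 with at least 50% covered, 13 with no NEC H3K4me3 within 5000 bp, 14 with joined peaks, 37 counted over H3K27me3 peaks and 11 with neither absent mark within 5000 bp. It therefore rests on peaks close to NEC H3K4me3. Unshared N H3K4me3 peaks (540) numbered 819 with at least 50% covered, 132 with none within 5000 bp and 118 with joined peaks. Unshared NEC H3K4me3 peaks (3923) numbered 6182, 2186 and 1837 under the same 3 settings and 2364 in lists of equal length. With H3K27me3 peaks of at least 2000 bp, 933 N and 1172 NEC peaks were unshared, and on all chromosomes 5857 NEC H3K27me3 peaks were. In lists of equal length the exchanged sites numbered 189 with H3K27me3 in N and 132 with H3K4me3 in N. Shortening the N H3K27me3 peaks by 200 bp at each end, also chosen after seeing the data, gave 240 and 110. The read depth is unknown, so a missing peak does not show that a mark is absent.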

Other observations

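Several exchanged H3K4me3 peaks sometimes shared an H3K27me3 domain. An N H3K27me3 domain of 16.9 kb on chromosome 3 (5208250 to 5225161) held 4 NEC H3K4me3 peaks absent in N, with fold enrichments from 4.34 to 6.40. Of these 4, 2 had no N H3K4me3 peak within 5000 bp, and the domain also overlapped N H3K4me3. On chromosome 6 (83085545 to 83088447) an N H3K27me3 peak of 2.90 kb covered 3 NEC H3K4me3 peaks, the strongest with a fold enrichment of 26.6. On chromosome 10 (69387160 to 69389166) 3 such peaks, up to 18.2, met an N H3K27me3 peak of 2.01 kb. In the opposite direction, a NEC H3K27me3 domain of 10.9 kb on chromosome 12 (30211338 to 30222277) held 5 N H3K4me3 peaks absent in NEC, each with NEC H3K4me3 within 5000 bp. Another, on chromosome 14 (65198419 to 65214421), held 3, among them the N exchanged peak of highest fold enrichment (11.8). Each of these 3 also had NEC H3K4me3 within 5000 bp. These domains were picked with their values known.

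The share of NEC H3K4me3 peaks exchanged for N H3K27me3 ranged from 0.221% to 2.64% over the autosomes, and whether this range exceeds chance was not tested. It was 2.64% on chromosome 7 (35 of 1324 peaks, interval 1.85 to 3.66%) and 2.54% on chromosome 2 (37 of 1457, interval 1.79 to 3.48%), against 0.221% on chromosome 18 (1 of 453, interval 0.00559 to 1.22%). These chromosomes were picked as the extremes with many peaks or the lowest share, and exchanged peaks in the same domain are not independent.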
